A study of Mus musculus with 3 samples.

Results

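The 38 genes described here are S phase genes, a fixed list of genes whose transcripts are known to mark cells that copy their DNA, out of 36593 genes in the 3 count tables. All 38 were present in each table. By role they comprised 8 genes of origin licensing and the helicase, 10 of polymerases and the replication fork, 3 of nucleotide supply, 7 of chromatin and histone supply, 8 of repair and fork protection and 2 of transcription. The data were droplet single-cell counts of testis cells of C57BL/6 mice, 1 library per group. The control library held cells of Scf fl/fl mice at 6 weeks of age. The Scf-cKO library, of the same age, held cells of Amh-cre; Scf fl/fl mice, in which the Amh promoter drives Cre in Sertoli cells and the floxed stem cell factor gene is deleted in those cells. Both were sorted to remove haploid cells. The third library held Tomato-negative cells of 8-week-old Ddx4-creER; R26tdTomato mice after tamoxifen, a sort that was meant to take away germ cells, many of which were still found in it. No library could be divided by animal, so no spread between animals could be measured and no test was run. All intervals are 95% intervals that cover counting error only.

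Before a cell divides, origins of replication are licensed by loading the Mcm2 to Mcm7 helicase with Cdc6, and Gmnn later prevents a second loading. At the start of S phase Cdc45 and the GINS complex, of which Gins2 is a subunit, turn the helicase on, Pola1 and Prim1 start new strands, and Pcna, placed by loaders such as Rfc2 and Dscc1, holds the polymerases on DNA. In the testis spermatogonia divide by mitosis, Kit-bearing spermatogonia do so several more times, and preleptotene cells go through the last S phase before meiosis. Scf is the ligand of Kit.

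RefSeq held promoters of 29 of the 38 members in GRCm38.p6, each running from 250 bases before the start to 50 after it. An E2F-type motif, here TTTCCCGC, TTTCGCGC, TTTGCCGC or TTTGGCGC on either strand with each promoter counted once, lay in 11 of these 29 promoters (37.9%), against 2.32% of 27025 promoters. CCAAT on either strand lay in 20 of them (69%), against 37.9% of all promoters. A match is a description of the letters and not a site of binding. The start is that of the promoter set and can lie inside the gene's listed span. This was so for Hells (span chr19:38930262-38970470) and Pola1 (span chrX:93304766-93632387), whose stretches lie within those spans. The 4 stretches below, with the motif in capitals and written 5′ to 3′ on the gene's strand, were picked after the values were seen because these members took different courses: from the Kit-positive class to preleptotene cells Casp8ap2 was higher and Cdca7 lower, Hells changed little, and Pola1 differed between the Scf-cKO and control libraries.
Casp8ap2, chr4:32615274-32615321, plus strand: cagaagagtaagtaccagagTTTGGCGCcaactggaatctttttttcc
Cdca7, chr2:72476128-72476175, plus strand: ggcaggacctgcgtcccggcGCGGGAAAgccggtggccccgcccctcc
Hells, chr19:38930908-38930955, plus strand: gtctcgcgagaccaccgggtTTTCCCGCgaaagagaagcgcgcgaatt
Pola1, chrX:93632266-93632313, minus strand: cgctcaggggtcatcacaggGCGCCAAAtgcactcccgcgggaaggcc

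Before filtering, median UMIs (unique transcript counts) per cell were 9699 in the Tomato-negative, 5922 in the control and 6254.5 in the Scf-cKO library. After it 5087, 5976 and 7018 cells were clustered without the cell cycle genes and named from markers, and pairs of libraries shared 9 to 15 cell barcodes. The germ cell classes held 58 control and 330 Scf-cKO stem-like spermatogonia, 255 and 664 progenitors, 1011 and 886 cells of the Kit-positive class, 508 and 45 preleptotene cells and 964 and 28 cells of early prophase. Within these classes Scf-cKO cells were deeper. Median UMIs were 12346 in control and 17148.5 in Scf-cKO progenitors, and 8999 and 18175.5 in the Kit-positive class. Of the Kit-positive class 68.9% of control and 98.3% of Scf-cKO cells had over 3500 genes. The targeted gene, Kitl, was at 352 CPM (a gene's UMIs in a class of a library, scaled to the usual fixed total of all its UMIs) in 5 control Sertoli cells (95% interval 176 to 630) and at 41.6 CPM in 26 Scf-cKO Sertoli cells (20.8 to 74.4). Where the 3' tag of Kitl lies relative to the deleted part was not determined.

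In sum, the S phase genes made up the largest share of UMIs in preleptotene cells. CPM is such a share, so this order is not one of transcripts per cell. Control median UMIs per cell were 8999 in the Kit-positive class, 4701.5 in preleptotene cells and 46977.5 in late prophase. Summed over the 38 genes, control germ cells held 5518 CPM in stem-like spermatogonia (95% interval 5321 to 5721), 4902 in progenitors (4824 to 4981), 7448 in the Kit-positive class (7393 to 7502), 9081 in preleptotene cells (8962 to 9200.5), 6659 in early prophase (6584 to 6735) and 4796 in late prophase (4775 to 4818). The Tomato-negative library held 5059, 4497, 8017, 8896, 7732 and 5166 CPM in the same classes. Its values were also highest in preleptotene cells, but late prophase there lay above progenitors and could not be told from stem-like spermatogonia by its interval. Scf-cKO cells held 5433, 4674, 6627 and 9477 CPM from stem-like to preleptotene cells. A class sum cannot tell fewer cells in S phase from less RNA per cell.

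**Figure D1:**
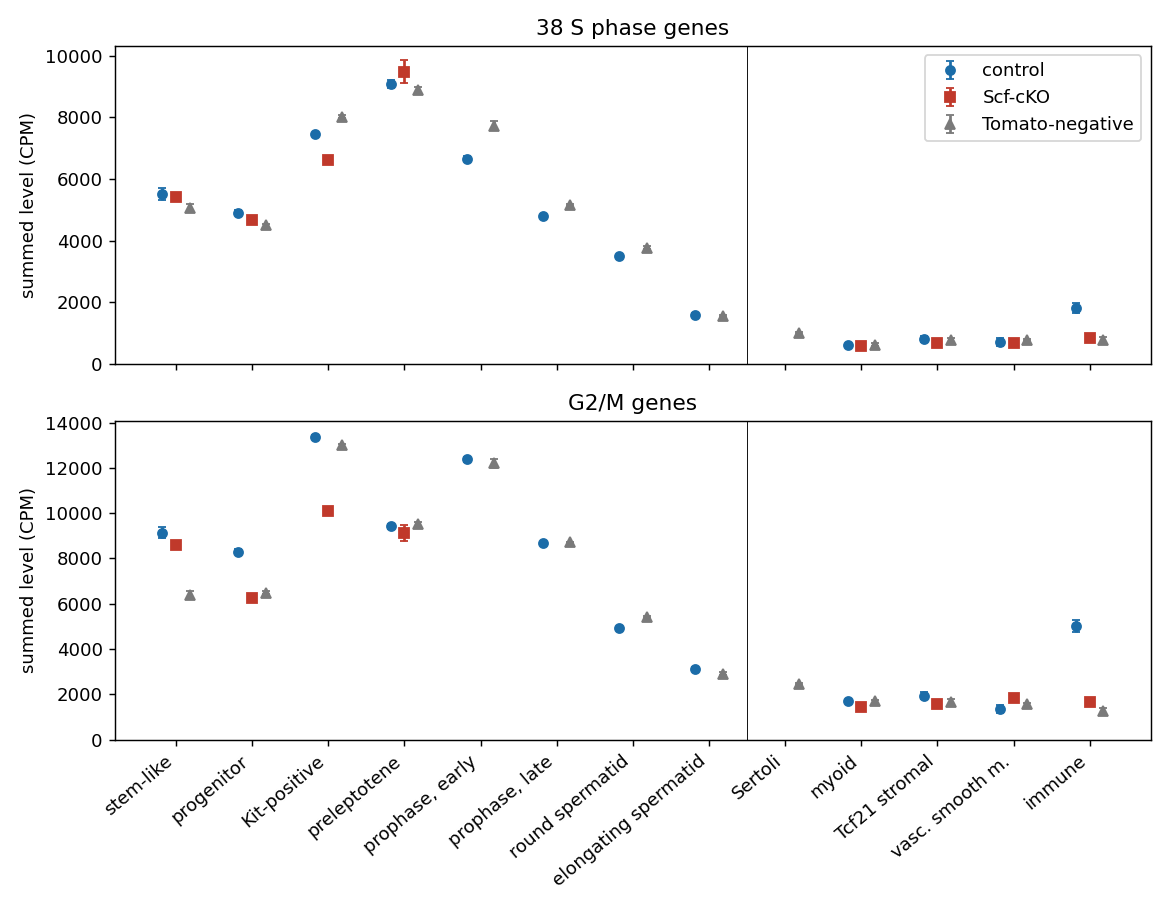
Summed level in CPM (linear axes from 0) of the 38 S phase genes, above, and of the G2/M genes, below, in germ cell classes left of the line and somatic classes right of it; points are libraries and bars 95% counting intervals, for classes of at least 30 cells. The S phase genes were highest in preleptotene cells in all 3 libraries, while the G2/M genes were higher in the Kit-positive class than in preleptotene cells.

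The G2/M genes, which act at mitosis, took another course. Their sum in control was 13374 CPM in the Kit-positive class and 9413 CPM in preleptotene cells. Cell by cell, with each cell thinned to 2000 UMIs, the median cell held 9 UMIs of the 38 genes in control stem-like spermatogonia, 8 in progenitors, 15 in the Kit-positive class and 18 in preleptotene cells. The 10th and 90th percentiles of preleptotene cells were 13 and 24, so even the 10th percentile lay above the median progenitor. At least 3 member UMIs were found in 96.8% of control progenitors and in 100% of preleptotene cells, against 14.1% of control myoid cells (95% interval 11.4 to 17.2). A count of 3 therefore does not separate germ cells in S phase from other germ cells.

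From stem-like spermatogonia to progenitors few members were past 1.5-fold. In control 1 of 38 was at least 1.5-fold higher, where 13.7% of 10806 genes were, and 4 at least 1.5-fold lower, where 16.1% were. The Tomato-negative library also had 1 and 4, where 16.4% and 14.5% of genes were, and Scf-cKO had 2 and 8, where 14.8% and 16.2% were. These counts and the levels below are with integration, and the direction depended on it. Without it Scf-cKO had 6 higher and 1 lower, where 1533 and 2214 of 17102 genes were, with a median member log2 ratio of 0.31. The control sum was then higher in progenitors than in stem-like spermatogonia. Gmnn, the inhibitor of a second licensing, was at 134 and 235 CPM in control and at 99.4 and 180 CPM in the Tomato-negative library. The ATPase Atad2 was at 536 and 221 CPM and the reductase subunit Rrm2 at 31.8 and 20.9 CPM in control. With integration both were lower in progenitors in all 3 libraries, Rrm2 being at 25.3 and 14.2 CPM in the Tomato-negative library and at 25.4 and 11.5 CPM in Scf-cKO. Staged cell by cell, from each cell's own marker UMIs, Rrm2 went the other way in control. It was then at 29.5 CPM in 52 stem-like cells and 68.0 CPM in 589 progenitors, and at 20.8 and 17.1 CPM in Scf-cKO. Atad2 was at 510 and 341 CPM in control by that staging.

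From progenitors to the Kit-positive class, as clustered with integration, most members were higher. In control 22 of 38 were at least 1.5-fold higher, where 23.6% of 14097 genes were, and 2 were at least 1.5-fold lower, where 22.3% of genes were. The median member ratio was 1.60. In the Tomato-negative library 28 of 38 were higher and 2 lower, where 23.7% and 24.8% of genes were. In Scf-cKO, with integration, 15 were higher and 0 lower, where 8.19% and 10.4% were, and without it 10 were higher and 2 lower, where 27.6% and 28.7% were. Gmnn was at 235 CPM in control progenitors and at 394 CPM in the Kit-positive class, and the histone chaperone Nasp at 557 and 1093 CPM. Chaf1b, a subunit of the CAF-1 histone chaperone, and Pola1, the catalytic subunit of polymerase alpha, went the other way, from 49.2 to 16.5 CPM and from 40.7 to 20.2 CPM. The size of these steps depended on the staging. Staged cell by cell, control Nasp was at 1008 and 1081 CPM, Gmnn at 223 and 363 CPM, Chaf1b at 22.4 and 16.5 CPM and Pola1 at 23.4 and 20.2 CPM. Scf-cKO then had 10 members higher and 0 lower, where 1134 and 926 of 14124 genes were.

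In control 15 members were highest in preleptotene cells over the 12 classes of at least 30 cells, 13 of them by more than the interval against the next class, and 12 in the Kit-positive class, 7 of them by more than that interval. The Tomato-negative library also had 15 in preleptotene cells and 13 in the Kit-positive class. Between these neighbouring classes the members divided, but the share of members higher was near that of all genes and the share lower was below it. In control 11 of 38 were at least 1.5-fold higher in preleptotene cells, against 25.2% of 13539 genes, and 5 at least 1.5-fold lower, against 37.1%. In the Tomato-negative library 9 were higher and 9 lower, against 20.8% and 39.2%. In the 45 Scf-cKO preleptotene cells 13 were higher and 7 lower than in the Kit-positive class of that library, against 30.5% and 34.5%. Without integration 9 of 36 were higher and 5 lower, against 24.8% and 25.2%. In both libraries 9 members were higher, Mcm5, Gins2, Prim1, Tipin, Rrm2, Casp8ap2, Atad2, Brip1 and Rad51ap1, and 5 lower, Mcm2, Tyms, Ung, E2f8 and Cdca7. These 14 kept their direction under every other clustering and limit that gave a value, but not always their size. Mcm5, Tipin, Casp8ap2, Ung and Rad51ap1 fell under 1.5-fold under some of them in both libraries, and Mcm2 and Gins2 in the Tomato-negative library. In control the log2 ratio of Atad2 was 1.92, against 1.23 to 1.61 elsewhere, and that of Cdca7 was -2.96, against -2.78 to -0.98.

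**Figure D2:**
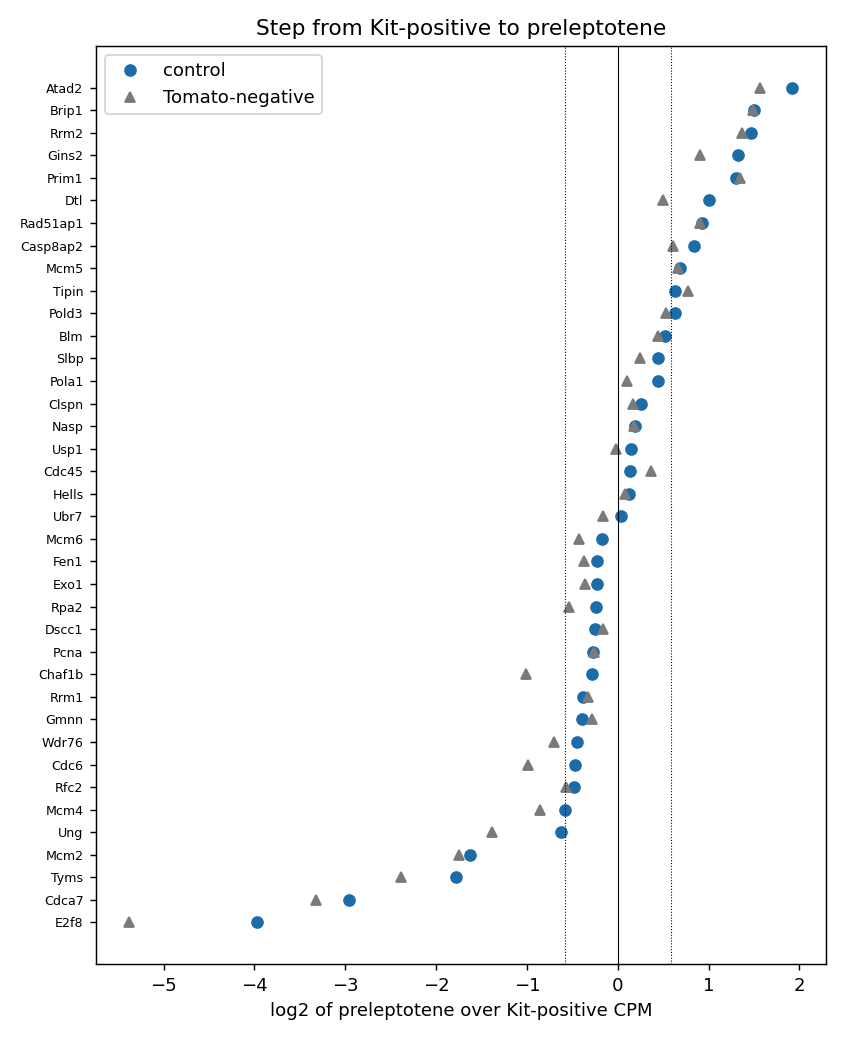
Each point is a gene's log2 ratio of CPM in preleptotene cells over the Kit-positive class, in the control library and in the Tomato-negative library; dotted lines mark 1.5-fold. The helicase subunit Mcm5 lies to the right and Mcm2 to the left in both libraries.

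Among the licensing genes, helicase subunits of the same ring went opposite ways. Mcm2 was at 156 CPM in the control Kit-positive class (148 to 164) and at 50.4 CPM in preleptotene cells (41.9 to 60.0), and at 163 and 48.7 CPM in the Tomato-negative library. Mcm5 was at 136 and 218 CPM in control and at 141 and 222 CPM in the Tomato-negative library. In Scf-cKO Mcm2 was at 140 and 65.6 CPM and Mcm5 at 127 and 175 CPM, the same directions. Mcm4 (196 and 132 CPM in control) was lower and Mcm6 (202 and 179 CPM) closer to level. Of the factors that load and fire the helicase, Gins2 was at 59.8 CPM in the control Kit-positive class and 150 CPM in preleptotene cells, Cdc45 at 82.8 and 91.0 CPM, the loader Cdc6 at 55.0 and 39.4 CPM and the inhibitor Gmnn at 394 and 299 CPM. The firing factor Gins2 was thus higher and the loader and inhibitor lower in preleptotene cells.

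Polymerase and fork genes divided as well. Prim1, the primase that starts new strands, was at 100 CPM in the control Kit-positive class and at 248 CPM in preleptotene cells, and at 104 and 263 CPM in the Tomato-negative library. The fork protection partners Clspn and Tipin were at 376 and 449 CPM and at 265 and 412 CPM in control, and the polymerase delta subunit Pold3 at 152 and 234 CPM, all higher by their intervals. Pola1 was at 20.2 and 27.2 CPM. The clamp Pcna (195 and 161 CPM), the flap nuclease Fen1 (105 and 90.1 CPM), the single-strand binding subunit Rpa2 (170 and 144 CPM) and the clamp loaders Rfc2 (112 and 80.4 CPM) and Dscc1 (46.9 and 39.4 CPM) had lower values in preleptotene cells. Rfc2 and Dscc1 were highest of all in control round spermatids, at 230 and 72.0 CPM.

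Nucleotide supply divided too. Rrm2, the S phase subunit of ribonucleotide reductase, was at 62.0 CPM in the control Kit-positive class and 171 CPM in preleptotene cells, while Tyms, which makes thymidylate, was at 89.9 and 26.0 CPM. The Tomato-negative values were 65.7 and 170 CPM for Rrm2 and 87.8 and 16.7 CPM for Tyms. The large reductase subunit Rrm1 was at 202 and 155 CPM in control. Between these classes Rrm2 was thus higher in preleptotene cells and Rrm1 and Tyms in the Kit-positive class. In stem-like spermatogonia Tyms was at 65.4 CPM in control, 91.3 CPM in the Tomato-negative library and 99.0 CPM in Scf-cKO.

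The 7 chromatin genes together held 3058 CPM in the control Kit-positive class and 4319 CPM in preleptotene cells. The ATPase Atad2 was at 536 CPM in control stem-like cells, 221 in progenitors, 216 in the Kit-positive class and 818 in preleptotene cells, and at 382, 178, 218 and 645 CPM in the Tomato-negative library, low in the middle classes and high at both ends. The histone mRNA factors Casp8ap2 and Slbp were at 362 and 645 CPM and at 406 and 551 CPM from the control Kit-positive class to preleptotene cells. The chromatin remodeller Hells was at 836 and 908 CPM and the histone ubiquitin ligase Ubr7 at 129 and 132 CPM. Cdca7, which works with Hells in remodelling, was at 176 and 22.3 CPM, so these partners parted at this step. E2f8, a repressor of the E2F family, was at 15.9 CPM in the control Kit-positive class (153 UMIs) and 0.81 CPM in preleptotene cells (95% interval of the latter 0.098 to 2.93).

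Of the repair genes, the helicase Brip1 was at 63.8 and 180 CPM, the repair factor Rad51ap1 at 109 and 206 CPM, the helicase Blm at 110 and 157 CPM and Dtl, which targets licensing factors for destruction, at 120 and 240 CPM from the control Kit-positive class to preleptotene cells. The uracil glycosylase Ung (128 and 83.2 CPM), the exonuclease Exo1 (130 and 111 CPM) and Wdr76 (81.9 and 59.7 CPM) had lower values there. Usp1, a deubiquitinase of the repair of stalled forks, was at 278 and 307 CPM. The 8 repair genes thus divided, with Brip1, Rad51ap1 and Dtl farthest on the higher side and Ung on the lower.

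From preleptotene cells to early prophase more members had lower than higher values in both libraries that held these classes. In control 19 of 38 were at least 1.5-fold lower, where 17.8% of 11910 genes were, and 2 higher, where 28.5% were. In the Tomato-negative library 8 of 37 were lower and 0 higher, where 12.7% and 20.4% of 11248 genes were. Prim1 was at 248 and 84.5 CPM in control and at 263 and 157 CPM in the Tomato-negative library. The clamp loader Dscc1 was at 39.4 and 15.7 CPM and at 47.3 and 20.7 CPM. Both had lower values in early prophase in each library.

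In late prophase most members were low. From early to late prophase 28 of 38 were at least 1.5-fold lower in control, where 49% of 16056 genes were, and 5 higher, where 33% were, and the median member ratio was 0.167. In the Tomato-negative library 30 were lower and 4 higher, where 50.8% and 34.1% of 14663 genes were. Mcm2 was at 0.63 CPM and Tyms at 0.74 CPM in control late prophase. Nasp was at 2467 CPM (2451 to 2482) and Usp1 at 812 CPM (803 to 821), each higher than in any earlier stage. In the Tomato-negative library Nasp was at 3019 CPM and Usp1 at 795 CPM. The 5 members with the most UMIs made up 80.7% of the control late prophase sum.

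**Figure D3:**
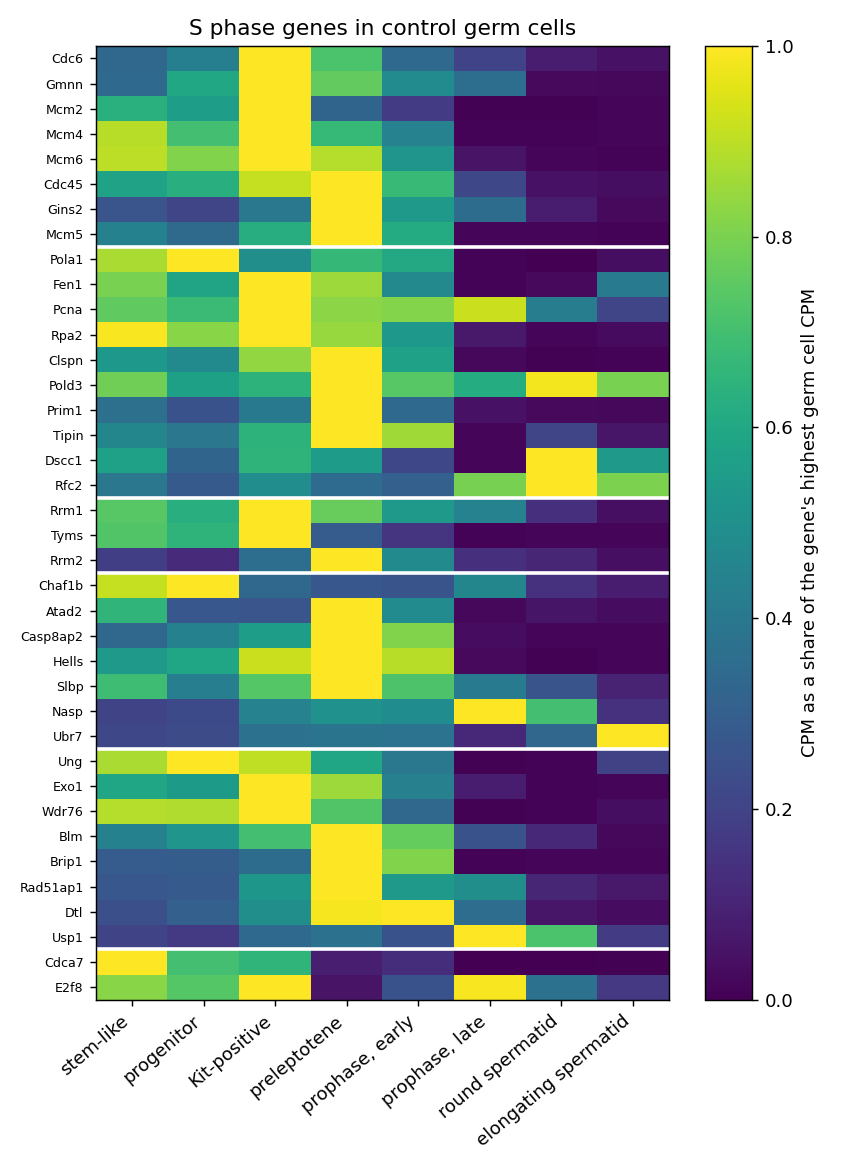
Rows are the 38 genes, grouped by role between white lines, and columns the germ cell classes of the control library; colour is a gene's CPM as a share of its highest germ cell CPM, from 0 to 1. Most genes are brightest in the Kit-positive class or preleptotene cells, and Nasp and Usp1 are brightest in late prophase.

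Somatic classes held far less. In control the sum was 626 CPM in myoid cells (599 to 654), 812 in Tcf21 stromal cells (716 to 916) and 708 in vascular smooth muscle cells (581 to 854). Germ cell RNA was found in these cells too: the 5 germ cell markers summed to 61.5 CPM in control myoid cells and 19.2 CPM in Scf-cKO myoid cells, and haploid transcripts to 322 and 7.47 CPM. Its part in the somatic levels was not tested. Control immune cells stood apart with 1822 CPM (1669 to 1985), against 838 CPM in Scf-cKO immune cells (787 to 891) and 799 CPM in Tomato-negative ones. Of the control immune cells 60 of 137 were under 2000 UMIs, against 28 of 305 in Scf-cKO, and 2.19% and 6.89% were called doublets. Germ cell markers summed to 146 CPM in control and 36.8 CPM in Scf-cKO immune cells, haploid transcripts to 824 and 15.1 CPM and the G2/M genes to 5024 and 1674 CPM. The part of depth and of germ cell RNA in this difference was not tested.

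The comparison in the Kit-positive class depended on which Scf-cKO cells were placed in it. With the libraries integrated, the class went against its name in Scf-cKO: Kit was at 186 CPM in control and 39.7 CPM in Scf-cKO, Gfra1, a stem cell receptor, at 0.42 and 19.2 CPM, Zbtb16 at 46.9 and 182 CPM and Nanos3 at 3.85 and 64.5 CPM, and its late cluster held 464 of 1011 control cells but 38 of 886 Scf-cKO cells. Clustered without integration, 72 Scf-cKO cells were left in the class beside 1301 control cells, and progenitors were 1290 Scf-cKO and 125 control cells. The 72 cells were thus placed by likeness in expression to a class made mostly of control cells. How far closeness to control in them follows from that placement was not tested. In the 72 cells Kit was at 203 CPM against 179 CPM in control, Zbtb16 at 54.2 against 45.0 CPM and Nanos3 at 2.52 against 3.64 CPM. The summed ratio, the members past 1.5-fold and the counts of the other lists are given both ways.

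The summed level in Scf-cKO over control had a ratio of 0.985 in stem-like spermatogonia (95% interval 0.948 to 1.02; 1.14 without integration), 0.954 in progenitors (0.936 to 0.971) and 1.04 in preleptotene cells (1.002 to 1.09). In the Kit-positive class it was 0.890 with integration (0.881 to 0.898) and 1.01 without it (0.986 to 1.04). The direction in progenitors turned, to 1.02, with no upper limit on genes per cell, and that in preleptotene cells turned to 0.992 with no upper limit and 0.970 when cells were staged one by one. With integration the G2/M sum differed more: it was 8302 and 6239 CPM in control and Scf-cKO progenitors, a ratio of 0.752 (0.741 to 0.762). Without integration 2 of 52 G2/M genes were at least 1.5-fold lower in progenitors, against 15 with it.

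In stem-like spermatogonia no member was at least 1.5-fold higher in Scf-cKO, where 9.06% of 11380 genes were, and 3 were at least 1.5-fold lower, where 12.8% were. Tyms was nearest to the higher side, at 65.4 and 99.0 CPM, a log2 ratio of 0.58 once 0.5 counts were added to each library, and Casp8ap2 was at 217 and 265 CPM. Exo1 was at 76.6 CPM in control and 43.5 CPM in Scf-cKO and Slbp at 379 and 302 CPM. The members' share past 1.5-fold was below that of all genes in both directions. Without integration, in 204 control and 903 Scf-cKO cells, 1 member, Tyms, was higher and 0 were lower, where 7.35% and 11.5% of genes were, and Exo1 had a log2 ratio of 0.12.

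In progenitors none was at least 1.5-fold higher, where 6.18% of 14390 genes were, and 4 were lower, where 10.4% were. These were Rad51ap1 (58.3 and 35.5 CPM, a ratio of 0.609 with an interval of 0.509 to 0.730), Rrm2 (20.9 and 11.5 CPM), E2f8 (11.7 and 6.34 CPM) and Dscc1 (23.1 and 14.4 CPM). Nasp was at 557 and 432 CPM, a ratio of 0.775 (0.733 to 0.819). Without integration 0 were higher and 2 lower, where 10.4% and 15.3% were. Staged cell by cell, in 589 control and 308 Scf-cKO cells, 2 were higher, Chaf1b and Pola1, and 16 lower, where 22.6% and 26% of 13123 genes were. Nasp was then at 1008 and 463 CPM, Gins2 at 57.2 and 26.1 CPM, Chaf1b at 22.4 and 46.8 CPM and Pola1 at 23.4 and 43.2 CPM. Rad51ap1, Rrm2, Dscc1 and Nasp were lower under all 7 other clusterings and limits that gave a value. On the other side of 1 lay Ung (141 and 176 CPM), Mcm5 (74.96 and 91.4 CPM), Casp8ap2 (284 and 322 CPM), Rpa2 (139 and 158 CPM) and Cdca7 (188 and 210 CPM), of which Ung alone kept its direction under all 7.

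In the Kit-positive class with integration 3 members were at least 1.5-fold higher in Scf-cKO, where 24.3% of 16244 genes were, and 7 at least 1.5-fold lower, where 26.5% were. Chaf1b was at 16.5 CPM in control (14.1 to 19.3) and 67.2 CPM in Scf-cKO (63.3 to 71.2), a ratio of 4.06 (3.44 to 4.83). Pola1 was at 20.2 and 54.7 CPM, a ratio of 2.71 (2.32 to 3.19), and Ung at 128 and 216 CPM. Chaf1b and Pola1 in Scf-cKO thus lay above their progenitor levels with integration, 49.2 and 40.7 CPM in control and 58.0 and 46.3 CPM in Scf-cKO. Lower were Rrm2 (62.0 and 26.6 CPM), Usp1 (278 and 161 CPM), Ubr7 (129 and 75.5 CPM), Gins2 (59.8 and 36.5 CPM), Nasp (1093 and 723 CPM), Dscc1 (46.9 and 30.7 CPM) and Rad51ap1 (109 and 71.5 CPM). Prim1 and Cdca7 were at 100 and 122 CPM and at 176 and 213 CPM, under 1.5-fold.

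Without integration none of the 38 members was past 1.5-fold in either direction, where 10.2% of 13531 genes were higher and 14.6% lower. In the 72 Scf-cKO cells Chaf1b was at 15.1 CPM against 14.1 CPM in control, Pola1 at 20.2 against 17.3 CPM, Ung at 135 against 127 CPM, Rrm2 at 83.2 against 70.0 CPM, Usp1 at 248 against 288 CPM and Nasp at 1182 against 1144 CPM. Of the other lower ones, Ubr7 was at 111 against 129 CPM, Gins2 at 60.5 against 62.9 CPM, Dscc1 at 46.6 against 48.3 CPM and Rad51ap1 at 106 against 110 CPM. The intervals of the log2 ratio spanned 0 for Chaf1b (-0.88 to 0.94) and Pola1 (-0.62 to 0.95). With integration, in the cluster with 349 control and 571 Scf-cKO cells, Chaf1b had a log2 ratio of 1.82, Pola1 of 1.004 and Ung of 0.85. None of the 7 lower members was past 1.5-fold there, Rrm2 and Usp1 having log2 ratios of -0.45 and Nasp of -0.32, and the summed ratio was 0.980. In that cluster 5 members were higher and 1, E2f8, lower, where 17.8% and 21.8% of 14493 genes were. In the late cluster 3 members were higher and 5 lower, where 15.1% and 19.8% of 9992 genes were. The remaining cluster held 198 control and 277 Scf-cKO cells. In it 4 members were higher and 8 lower, where 24.9% and 28.2% of 12419 genes were, and the summed ratio was 0.874. Its log2 ratios included 2.72 for Pola1, 2.14 for Chaf1b, 1.37 for Prim1, -1.41 for Gins2, -1.39 for Rrm2, -1.25 for Ubr7 and -0.71 for Nasp. In cells with a Kit UMI and little Stra8, 1010 in control and 467 in Scf-cKO, the log2 ratio was 1.84 for Chaf1b, 1.26 for Pola1 and -1.42 for Rrm2, but Kit itself was at 226 and 98.9 CPM there. By this staging 3 members were higher and 7 lower, where 3457 and 3645 of 15167 genes were. The Chaf1b and Pola1 differences were thus found in the integrated class and in cells staged one by one, where Scf-cKO cells held less Kit. They were not detectable in the 72 cells left without integration, by wide intervals and in cells placed by their likeness to mostly control cells. In progenitors with integration Kit was at 31.3 and 5.99 CPM, but Chaf1b at 49.2 and 58.0 CPM, under 1.5-fold. The part of class make-up in these differences was not tested.

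**Figure D4:**
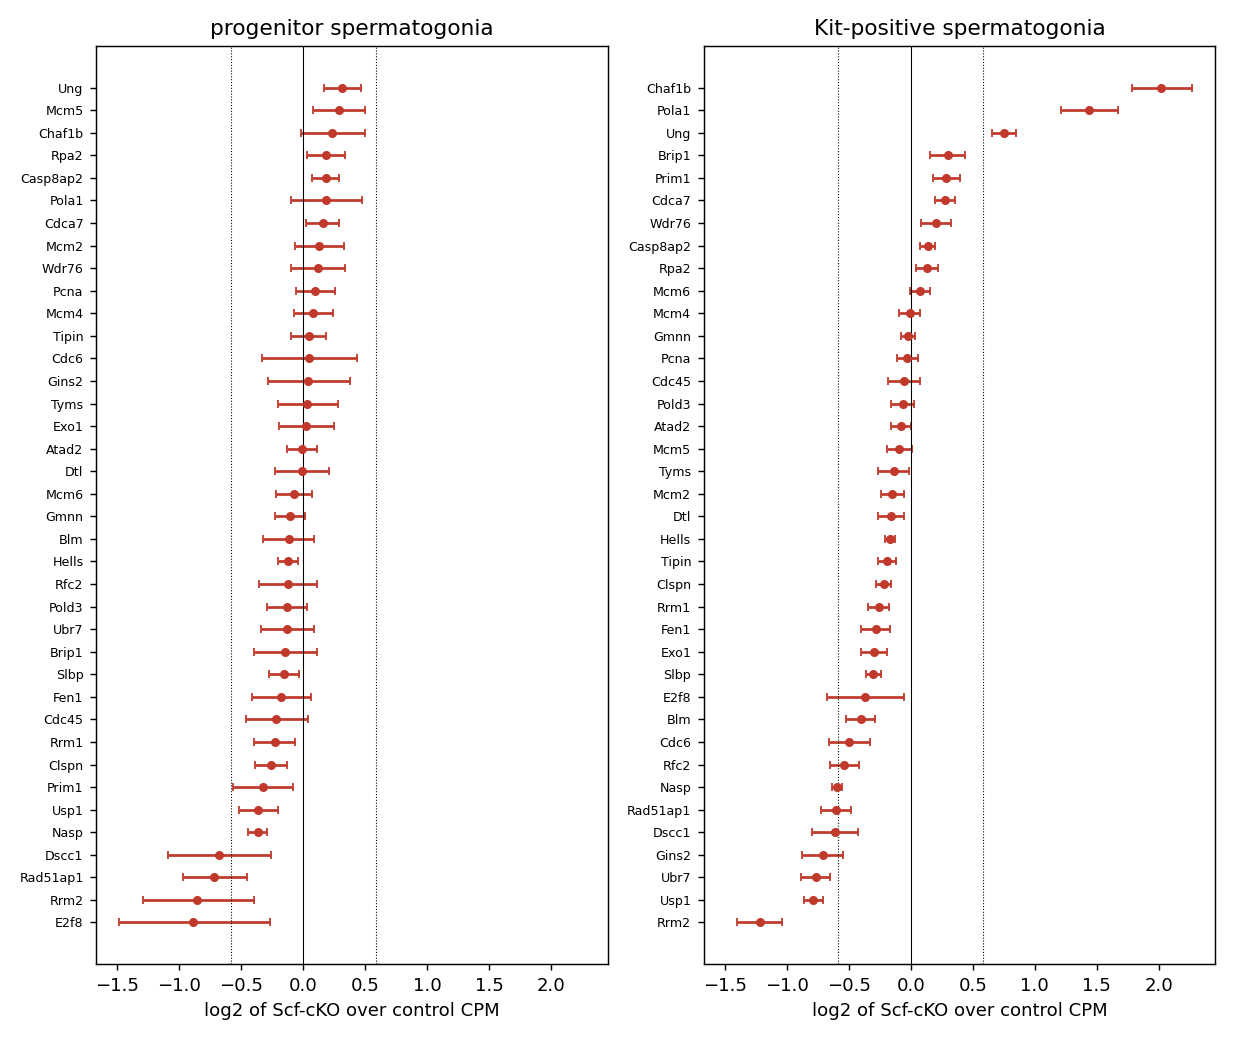
Log2 ratio of CPM in Scf-cKO over control for each member, in progenitors on the left and the Kit-positive class, with integration, on the right; bars are 95% counting intervals, dotted lines 1.5-fold. Chaf1b and Pola1 lie farthest to the right in the Kit-positive class and Rrm2 farthest to the left; without integration Chaf1b and Pola1 had log2 ratios of 0.15 and 0.26 and Rrm2 of 0.26.

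A cluster led by the mitotic genes Cenpa, Ccna2 and Ube2c, which was left unnamed because its markers lay between the Kit-positive class and progenitors, held 161 control and 190 Scf-cKO cells. Its S phase sum was 7694 CPM in control and 5067 CPM in Scf-cKO, a ratio of 0.659 (0.643 to 0.674). Chaf1b was at 4.41 CPM in control (6 UMIs) and 54.6 CPM in Scf-cKO, a ratio of 12.4 (5.60 to 34.1), and Rrm2 at 120 and 18.3 CPM. Another unnamed cluster, with myoid genes in germ cells, had 75.9% of its 58 control and 53.1% of its 194 Scf-cKO cells called doublets, and its sum was 4157 and 4124 CPM. Of the other unnamed germ cell clusters of at least 30 cells, the one with the most control cells held 415 of them, at 6544 CPM. The next held 287 control and 81 Scf-cKO cells, at 7369 and 5374 CPM, a ratio of 0.729 (0.687 to 0.774), and 15 of 36 members were lower and 3 higher there, where 29.4% and 17.1% of genes were.

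In the 45 preleptotene cells of the Scf-cKO library few members were past 1.5-fold, and more were when cells were staged one by one. Of 37 members with at least 20 counts, 1 was at least 1.5-fold higher, where 11.8% of 8950 genes were, and none lower, where 14.2% were. It was Cdca7, at 22.3 and 43.7 CPM with an interval of the ratio of 0.954 to 3.70. Casp8ap2 was at 645 and 794 CPM, Slbp at 551 and 678 CPM and Tipin at 412 and 514 CPM, each above control by its interval, and Prim1 at 248 and 179 CPM, below it. Chaf1b, with 4 UMIs in Scf-cKO, was at 13.4 and 14.6 CPM, and Rrm2 at 171 and 197 CPM. Without integration 1 of 37 was higher and 1 lower, where 9.53% and 15.7% were. Staged one by one, in 510 control and 52 Scf-cKO cells, 6 of 38 were higher and 1, Rrm2, lower, where 17% and 19.5% of genes were. Casp8ap2, Tipin and Rrm2 were among those that turned there, to log2 ratios of -0.13, -0.29 and -0.72, Rrm2 being at 133 and 79.8 CPM. Chaf1b was at 15.4 and 41.7 CPM and Tyms at 38.1 and 95.5 CPM.

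Other genes of the cell cycle stand beside these values. In the Kit-positive class 24.3% of 16244 genes were at least 1.5-fold higher and 26.5% lower with integration. Without it 10.2% of 13531 genes were higher and 14.6% lower. Of 40 other replication genes, 2 were higher and 3 lower in the Kit-positive class with integration: Gins4 was at 108 and 183 CPM, Mcm7 at 199 and 305 CPM, the histone chaperone Asf1b at 153 and 58.6 CPM and Pold2 at 66.3 and 28.3 CPM. Without integration 0 were higher and 1 lower, with Gins4 at 104 and 123 CPM and Asf1b at 154 and 149.9 CPM. Of 52 G2/M genes 19 were lower and 3 higher, with a median log2 ratio of -0.47 against -0.16 for the S phase genes and -0.08 for all genes tested. Without integration 0 of these were lower and 3 higher, and the medians were -0.0034, -0.017 and -0.0052. Of 23 G1/S regulators 10 were lower and 5 higher, and the CDK inhibitor Cdkn1b was at 0.73 and 27.7 CPM. Without integration 1 of 22 was lower and 0 higher, and Cdkn1b was at 0.87 and 1.26 CPM. Staged cell by cell, 14 of 52 G2/M genes were lower and 3 higher in the Kit-positive class. Of 23 G1/S regulators 10 were then lower and 6 higher, where 3645 of 15167 genes were lower and 3457 higher. In progenitors with integration 15 of 52 G2/M genes were lower and 0 higher, where 10.4% and 6.18% of genes were. The proliferation gene Mki67 was at 219 and 70.8 CPM. The median was -0.44 against -0.09 for the S phase genes and -0.04 for all genes tested. Without integration 2 were lower and 0 higher, where 15.3% and 10.4% were, and the medians were -0.12, 0.015 and -0.073. Staged cell by cell 22 were lower and 3 higher, where 26% and 22.6% were.

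Among somatic classes, 5 of 33 members tested in myoid cells were at least 1.5-fold higher in Scf-cKO, where 9.58% of 13552 genes were, and 7 lower, where 13.8% were. Rad51ap1, Gmnn and Nasp, of which Nasp was at 111 CPM in control, were among the lower ones. In immune cells 21 of 25 were lower, where 19.6% of genes were, and none higher, where 21.7% were, and 34 of 38 G2/M genes were lower too, beside the germ cell RNA given above. In the Tcf21 stromal class 11 of 31 were lower and 7 higher, where 22.1% and 16.4% were, and in vascular smooth muscle cells 3 of 13 were lower and 1 higher, where 17.6% and 16.3% were.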

How the data were processed

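The deposited files hold raw UMI counts per gene and cell, made by the authors with Cell Ranger 2.1.1 on GRCm38 from Chromium Single Cell 3' v2 libraries; Seurat 3.1 is also named in the submitters' processing notes. The Tomato-negative cells were taken by their barcode ending from a table merged with control cells, and 149 cells there of no stated sample were not used. Libraries held 6264 control, 7626 Tomato-negative and 7252 Scf-cKO cells before filtering. A cell was kept if it had between 200 and 7500 genes and no more than 10% of its UMIs from mitochondrial genes. The methods' limit of 3500 genes takes out most spermatogonia and was an alternative.

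Cells were clustered with Seurat 5.3.0 (R 4.3.3) after anchor integration, with 2000 variable genes, 20 components and resolution 0.5 over all cells, 25 components for germ cells and 15 for spermatogonia, leaving all cell cycle genes out, and classes were named from fixed markers. Doublets were called with Scrublet in scanpy 1.11.5 and kept in the main analysis (3.42% of control, 4.31% of Tomato-negative and 4.87% of Scf-cKO cells). Counts were summed per class and library and given as CPM with exact Poisson intervals. Ratios have exact conditional binomial intervals and shares exact Clopper-Pearson intervals (SciPy 1.17.1). With 1 library per group no test was run. Genes whose counts in the pair of libraries reached 20 together could be called past 1.5-fold, after adding 0.5 to each count. The interval and fold steps were tested on simulated data.

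The members, lists and markers were chosen with earlier results of these data known. Named were the 2 members of each role with the highest control CPM in a germ cell stage, and in each comparison up to 5 members each way by the interval end nearest to no change; further members are given by role. Alternatives were other gene limits, clustering without integration, with cell cycle genes, without doublets or at another resolution, staging cell by cell, thinning, scaling and subtraction of the myoid level. Cells split at 3500 genes within the classes were added after the data were seen. Protein sequences were not used here.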

Additional observations from a re-analysis of the deposited data

Results flagged for a closer look

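The summed S phase level in Scf-cKO over control lay on opposite sides of 1 in different classes, each by its counting interval, which drew attention to 6 values. It was 1.04 in preleptotene cells, against 0.954 in progenitors and 0.890 in the Kit-positive class with integration, and against 0.925 in myoid, 0.86 in Tcf21 stromal and 0.46 in immune cells. The difference between the classes was not tested, since each group is 1 library. The values in preleptotene cells, progenitors and the Kit-positive class changed side under at least 1 other setting.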

How the results depend on the processing

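Each group is 1 library, so no library could be left out, and labels could not be permuted. No paired analysis was possible because each group is 1 library. Every value here counts cells of 1 library, and its interval covers counting error. Low members, E2f8 and Chaf1b among them, and members in small classes, such as Exo1 in stem-like cells, rest on few UMIs and are limited by depth. The summed level set the Scf-cKO over the control library at a ratio of 0.985 in stem-like cells, 0.954 in progenitors, 0.890 in the Kit-positive class, 1.04 in preleptotene cells and 0.925 in myoid cells. The progenitor, Kit-positive and preleptotene ratios turned direction under at least 1 setting given next, the stem-like ratio stood on both sides of 1, and the cause was not tested. Reclustering with at most 3500 genes per cell left no value for the stem-like and progenitor ratios, and by construction used fewer cells. The control level stood highest in preleptotene cells under every alternative clustering and limit.

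At another resolution, the ratio was 0.942 in the Kit-positive class. Control levels were 5648 CPM in progenitors, 7301 CPM in the Kit-positive class, 9299 CPM in preleptotene cells, 6492 CPM in early prophase and 4757 CPM in late prophase. Without integration, the ratio was 1.14 in stem-like cells, 0.993 in progenitors and 1.01 in the Kit-positive class. Control levels were 4291 CPM in stem-like cells, 6154 CPM in progenitors, 7944 CPM in preleptotene cells and 6549 CPM in early prophase. Progenitors thus lay above stem-like cells there, the reverse of the main analysis. The log2 ratio turned to 0.12 for Exo1 in stem-like cells, -0.055 for Cdca7 in progenitors, -0.15 for Prim1 in the Kit-positive class, 0.26 for Rrm2 in the Kit-positive class and 0.047 for Nasp in the Kit-positive class. With cell cycle genes among the variable genes, the ratio was 0.919 in stem-like cells and 0.809 in the Kit-positive class. Control levels were 6506 CPM in stem-like cells and 7906 CPM in preleptotene cells. The log2 ratio turned to -0.043 for Prim1 in the Kit-positive class. Without doublets, the ratio was 0.847 in progenitors and 0.925 in the Kit-positive class. Control levels were 5735 CPM in progenitors and 7972 CPM in preleptotene cells. The log2 ratio turned to -0.022 for Mcm5 in progenitors and -0.0084 for Rpa2 in progenitors. With at most 3500 genes per cell, the ratio was 0.789 in the Kit-positive class and 0.858 in myoid cells. Control levels were 7321 CPM in the Kit-positive class, 6837 CPM in early prophase and 681 CPM in myoid cells. The share of cells was 93.8% in progenitors. The log2 ratio turned to -0.67 for Prim1 in the Kit-positive class. With no upper limit on genes, the ratio was 1.02 in progenitors, 0.841 in the Kit-positive class and 0.992 in preleptotene cells. Control levels were 5799 CPM in stem-like cells, 8255 CPM in preleptotene cells and 3302 CPM in early prophase. The log2 ratio turned to -0.036 for Tipin in preleptotene cells. With each cell thinned to 2000 UMIs, the ratio was 0.979 in progenitors and 0.869 in the Kit-positive class. Control levels were 5095 CPM in stem-like cells, 4665 CPM in progenitors, 7558 CPM in the Kit-positive class, 7011 CPM in early prophase and 4748 CPM in late prophase. With the median log2 ratio of all genes set to 0, the ratio was 1.03 in stem-like cells, 0.979 in progenitors and 0.942 in the Kit-positive class. With the myoid level subtracted, the control level was 4892 CPM in stem-like cells, 4276 CPM in progenitors, 6822 CPM in the Kit-positive class, 8455 CPM in preleptotene cells, 6033 CPM in early prophase and 4170.3 CPM in late prophase. Staged cell by cell, the ratio was 0.919 in stem-like cells, 0.702 in progenitors, 0.881 in the Kit-positive class and 0.970 in preleptotene cells. The log2 ratio turned to -0.45 for Mcm5 in progenitors, -0.62 for Casp8ap2 in progenitors, -0.043 for Rpa2 in progenitors, 0.052 for E2f8 in progenitors, -0.13 for Casp8ap2 in preleptotene cells and -0.29 for Tipin in preleptotene cells. In cells of at most 3500 genes within the same classes, a setting chosen after seeing the data, the control level was 4049 CPM in progenitors and 8139 CPM in the Kit-positive class. In cells of over 3500 genes within the same classes, also chosen after seeing the data, the ratio was 0.920 in stem-like cells and 0.912 in the Kit-positive class.

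The share of cells thinned to 1000 UMIs was 70.7% in stem-like cells, 77.6% in progenitors, 98.0% in the Kit-positive class, 99.2% in preleptotene cells, 84.8% in early prophase, 82.9% in late prophase and 1.49% in myoid cells, and in Scf-cKO 77.6% in stem-like cells, 77.3% in progenitors, 94.2% in the Kit-positive class and 2.36% in myoid cells. The share of cells for at least 1 member UMI was 100% in stem-like cells, 100% in progenitors, 100% in early prophase, 100% in late prophase and 73.7% in myoid cells, and in Scf-cKO 99.4% in stem-like cells, 100% in progenitors, 100% in the Kit-positive class and 69.1% in myoid cells. The share of cells for at least 5 member UMIs was 86.2% in stem-like cells, 80.2% in progenitors, 99.4% in the Kit-positive class, 90.8% in early prophase, 93.8% in late prophase and 0.842% in myoid cells, and in Scf-cKO 87.3% in stem-like cells, 87.5% in progenitors, 98.5% in the Kit-positive class and 1.06% in myoid cells. At 2-fold the counts past the fold were 413 higher and 505 lower genes in stem-like cells, 0 lower members in stem-like cells, 305 higher and 584 lower genes in progenitors, 0 lower members in progenitors, 2590 higher and 2379 lower genes in the Kit-positive class, 1 lower member in the Kit-positive class, 298 higher and 660 lower genes in preleptotene cells, 649 higher and 968 lower genes in myoid cells, 1 higher and 4 lower members in myoid cells. With at least 100 counts the counts past the fold were 257 higher and 352 lower genes in stem-like cells, 221 higher and 413 lower genes in progenitors, 2202 higher and 2768 lower genes in the Kit-positive class, 203 higher and 319 lower genes in preleptotene cells, 0 higher members in preleptotene cells, 531 higher and 768 lower genes in myoid cells, 2 higher and 2 lower members in myoid cells. With no minimum of counts the counts past the fold were 2120 higher and 9193 lower genes in stem-like cells, 2846 higher and 6242 lower genes in progenitors, 9772 higher and 8751 lower genes in the Kit-positive class, 7284 higher and 2325 lower genes in preleptotene cells, 2 higher members in preleptotene cells, 3066 higher and 6224 lower genes in myoid cells. With 1 added before the log the counts past the fold were 3 higher members in myoid cells. Members past 1.5-fold in the Kit-positive class were 3 higher and 7 lower both in the main analysis and staged cell by cell, and 0 and 0 without integration. Staged cell by cell, those in progenitors went from 0 and 4 to 2 and 16, and those in preleptotene cells from 1 and 0 to 6 and 1. In stem-like cells 0 and 3 became 1 and 0 without integration, and in progenitors 0 and 4 became 0 and 2.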
